A study of Mus musculus with 64 samples.

Results

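Liver mRNA of male mice in which the human AS3MT and BORCS7 genes stand in place of mouse As3mt and Borcs7 was compared with liver mRNA of wild type (WT) males labelled as the same strain. The comparison takes 6 of the 64 samples of the series, 3 humanized males and 3 WT males, chosen by their labelled tissue, sex and genotype. All are labelled as 129S6/SvEvTac mice that drank water with inorganic arsenic (iAs) at 400 ppb for 4 weeks, so the WT males are exposed controls and no unexposed animal entered. The labels give the genotype as the ortholog of AS3MT that is expressed, human or mouse, and the exchange of Borcs7 along with it is known from the description of the line. The 6 female liver libraries, 3 of WT and 3 of humanized mice exposed in the same way, shared the model and served for the test of whether the genotype difference depends on sex. Age, the number of founder lines and whether the WT mice were littermates are not given in the sources used here. The labels name each library as a sample of its own without stating that each came from another animal, so p-values measure the spread between these samples.

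Arsenite is methylated in the liver by arsenic methyltransferase, which moves methyl groups from S-adenosylmethionine onto arsenic and so makes the mono- and dimethylated forms that leave in urine. Human and mouse enzymes are known to differ in how far they carry this methylation. In the mouse genome As3mt lies beside Borcs7, whose product belongs to a complex that positions lysosomes, and both were exchanged together. Adult liver also differs between the sexes, because pulses of growth hormone in males and a steadier level in females act through STAT5 in hepatocytes on many genes of drug, steroid and lipid metabolism.

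Gene values are the DESeq-normalized signal of the deposited table, given per library in the order of replicates 1, 2 and 3. Differences are humanized minus WT on the scale of log2(signal + 1), with the standard error (SE), from limma fitted to the 12 liver libraries with the labelled preparation as a covariate. Of 15180 genes tested, 5 passed a Benjamini-Hochberg adjusted p of 0.05 (0.0329%), of which 2 were higher (0.0132%) and 3 lower (0.0198%) in humanized males. At an unadjusted p under 0.05 were 1083 genes (7.13%), 657 higher (4.33%) and 426 lower (2.81%). The groups did not overlap in 811 genes that were higher (5.34%) and 709 that were lower (4.67%) in humanized males, and over all genes 49% of the differences were above and 51% below 0. These percentages are the background for each count of listed genes. In the text, rose and fell are kept for the 5 called genes.

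The libraries summed to 77307210 to 95381805 units of signal, with 18806 to 19051 genes above 0 in each male library. The correlation of log2 values across genes ran from 0.952 to 0.971 within the male groups and from 0.95 to 0.97 between them. Hepatocyte markers were present throughout, with a summed signal of 11265100 to 14944800 in WT and 9813620 to 12950800 in humanized males, and pancreas acinar markers were nearly absent, with 10 of 16 at 0 in all 6 male libraries. The Y-linked gene Ddx3y read 4891, 5627 and 4709 in WT and 5296, 6184 and 4732 in humanized males, and Xist, the X-inactivation RNA of females, stayed at or below 42.8. WT replicate 1 stood apart: its acute phase genes summed to 10357500, against 5058980 and 3074230 in the other WT males and 2805720 to 4047910 in humanized males. Values without it, or without another library, are given where they alter a result.

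The preparation named in the labels differs between the groups, since 2 of 3 humanized males (replicates 1 and 2) but only 1 of 3 WT males (replicate 1) are labelled as ribosomal depletion, and the others as polyA. RNAs that lack a polyA tail, such as replication-dependent histone mRNAs and the small RNAs 7SK and scaRNA2, are a direct readout of such a split. Rn7sk, the RNA that holds the elongation kinase P-TEFb inactive, read 147 to 317 in the 6 libraries labelled ribosomal depletion and 133 to 333 in the 6 labelled polyA. Of the 18 such RNAs tested, 11 were higher in the ribosomal depletion libraries, their median log2 difference was 0.16, and none had an unadjusted limma p under 0.05. Between the genotypes the same list differed more: 16 of 18 were lower in humanized males, 5 of them at an unadjusted p under 0.05, with a median of -0.50 and no call. Over all genes, limma called 0 of 15180 (0%) between the preparations, and 659 (4.34%) had an unadjusted p under 0.05. The fit without the covariate called 7 genes between the genotypes and held all 5.

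**Figure D1:**
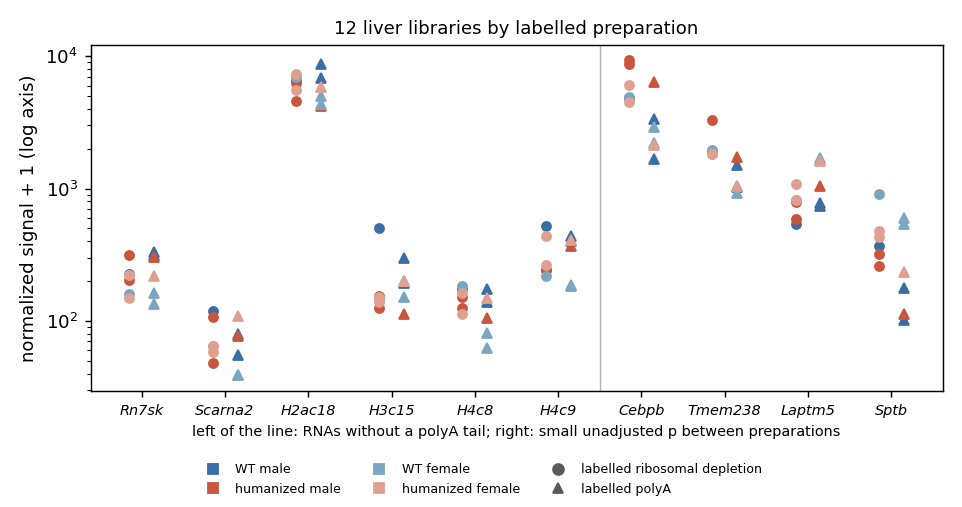
Normalized signal plus 1 (log axis) of 6 RNAs without a polyA tail and 4 of the genes with the smallest unadjusted p between preparations, in the 12 liver libraries, with circles for labelled ribosomal depletion and triangles for labelled polyA. The circles and triangles of Rn7sk and the histone genes overlap.

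The genes with the smallest p between the labelled preparations overlapped in part, and none passed the adjustment. Cebpb, which encodes a transcription factor of liver metabolism and the acute phase, read 4519 to 9299 in libraries labelled ribosomal depletion and 1658 to 6364 in those labelled polyA (log2 difference 0.95, limma adjusted p = 0.993). Tmem238 and Sptb, which encodes the red cell spectrin beta, were also higher with the depletion label (0.74 and 1.11), as were Fndc5 (1.13) and Ccn3 (1.88). Lower with that label were Nxpe4 (-2.49), Smpdl3b (-2.05), Dnah2 (-2.18) and the leukocyte genes Laptm5 (-0.72) and Fgd2 (-0.69). Whole lists leaned with the label too. Interferon response genes were higher with the depletion label in 1 of 40 tested (median -0.36, 9 at an unadjusted p under 0.05), fatty acid and triglyceride synthesis genes in 6 of 34 (median -0.16, 3 at that p) and acute phase genes in 32 of 34 (median 0.30, 0 at that p). In males, a comparison within preparations sets WT replicate 1 against humanized replicates 1 and 2, and WT replicates 2 and 3 against humanized replicate 3. These differences are given beside some of the results below as the depletion value and the polyA value, with no test. For results without them, the values can differ in size or sign between the preparations. Since the RNAs without a polyA tail did not differ by label, what these labels say of the libraries is uncertain, and with it the meaning of the covariate and of the depletion and polyA values.

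The replaced genes came first as the check of the labels. As3mt (ENSMUSG00000003559), the arsenic methyltransferase gene, read 4569, 5796 and 2624 in WT and 0, 2.00 and 1.04 in humanized males. It fell in humanized males (log2 difference -11.14, limma adjusted p = 8.71e-07), and each library matched its label. Borcs7 (ENSMUSG00000062376) read 641, 745 and 620.2 in WT and 15.1, 13.0 and 14.5 in humanized males and fell as well (-5.47, limma adjusted p = 4.94e-06), a call that was not made with the libraries labelled polyA alone (adjusted p = 0.0555). The signal left for Borcs7, 13.0 to 15.1, was alike in the 3 humanized males, whereas that left for As3mt was at most 2.00. The human transcripts were not analysed here.

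Of the 17 tested neighbours of the locus, 1 was called. Gm6967 (ENSMUSG00000097937), a gene model that follows Borcs7 directly on the side away from As3mt in the gene order of chromosome 19, read 7.93, 3.64 and 0 in WT and 315, 138 and 306 in humanized males. It rose in humanized males, with no overlap of the groups (6.07, limma adjusted p = 0.0387, depletion 4.56, polyA 7.16). In females Gm6967 was higher as well, at 7.18, 26.9 and 23.1 in WT and 431, 279 and 389 in humanized mice (4.32, limma adjusted p = 0.39). Among the other neighbours, Sfxn2, a mitochondrial serine carrier gene, was lower at 2737, 1707 and 2845 in WT and 1500.1, 1400.1 and 1290.1 in humanized males (-0.80, limma adjusted p = 0.467). Wbp1l (-0.43) and Actr1a (-0.28) were lower in all 3 humanized males than in any WT male without passing the adjustment. Cyp17a1, the steroid 17-hydroxylase gene between Wbp1l and Gm6967, read 1918, 1154 and 407 in WT and 1982, 1186 and 1728 in humanized males and overlapped between the groups. The Gm6967 call was lost in the fit of the 6 male libraries alone (limma adjusted p = 0.304), 1 of 16 alternatives that lost it, with a log2 difference of 4.56 to 7.20 across them.

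**Figure D2:**
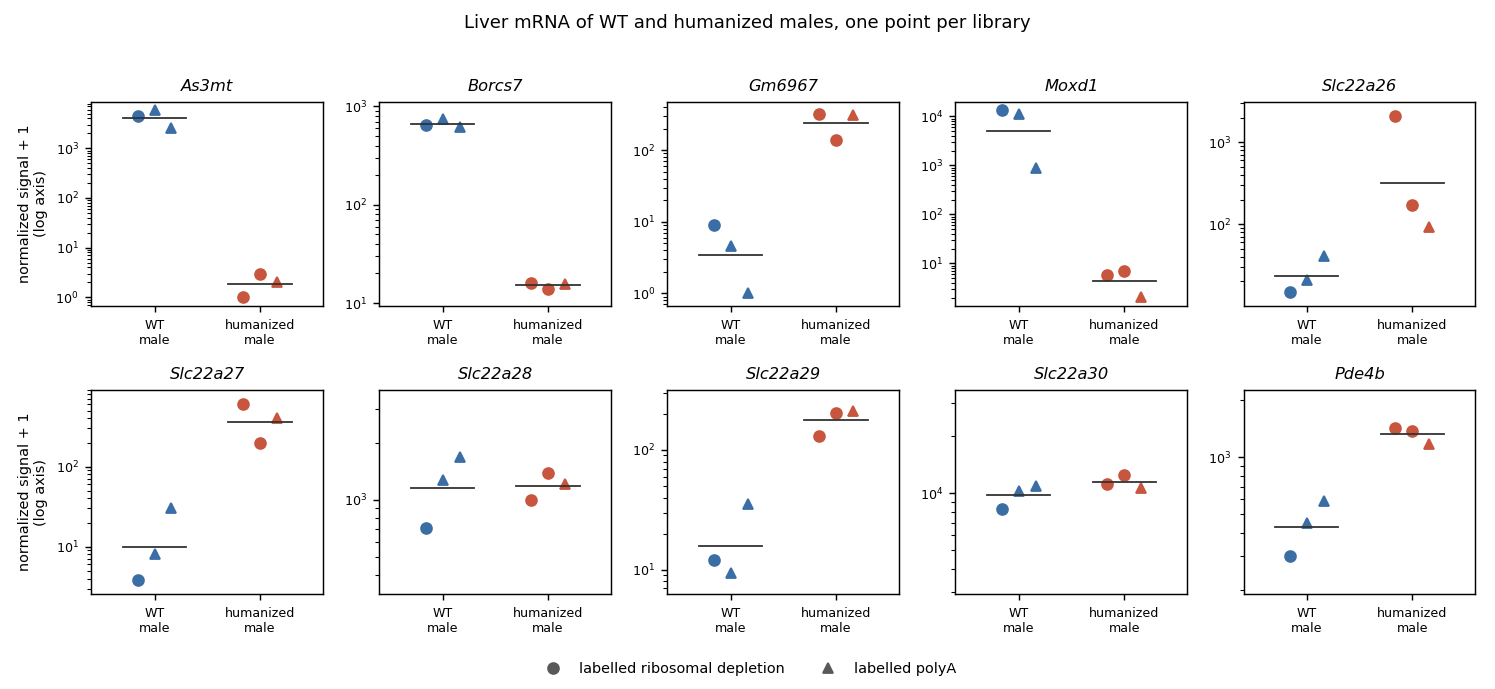
Normalized signal plus 1 (log axis) of the 5 called genes, of the remaining Slc22a genes of the chromosome 19 cluster and of Pde4b in the 3 WT and 3 humanized male libraries, with lines at the mean of the log2 values. As3mt, Borcs7 and Moxd1 lie lower and Gm6967, Slc22a26, Slc22a27, Slc22a29 and Pde4b higher in every humanized male, while Slc22a28 and Slc22a30 overlap.

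Moxd1 (ENSMUSG00000020000), which encodes a copper-dependent monooxygenase-like protein of the endoplasmic reticulum, was the third gene that fell. Its signal was 13318, 11059 and 879 in WT and 4.68, 5.99 and 1.03 in humanized males, so that WT replicate 3 lay far below the other WT males and still far above every humanized male. The log2 difference was -10.85 (limma adjusted p = 0.00246, depletion -11.05, polyA -10.58). WT females stood at 17.3, 0 and 0, and humanized females at 0 in all 3 libraries, so the humanized males lay within the range of the females. Without WT replicate 1 the adjusted p was 0.0516, and with the libraries labelled polyA alone it was 0.287.

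Slc22a27 (ENSMUSG00000067656), an organic anion transporter gene of the liver, was the second gene that rose. Its signal was 2.81, 7.18 and 29.5 in WT and 602, 199 and 400 in humanized males, without overlap (5.40, limma adjusted p = 0.0144). WT females had 2307, 3186 and 2895, so that humanized males stood between WT males and WT females. The gene lies in a run of 5 consecutive Slc22a genes on chromosome 19, 584 to 588 places from As3mt in gene order, and the run split. Slc22a29 read 11.0, 8.34 and 34.4 in WT and 131, 203 and 210.1 in humanized males (3.50, limma adjusted p = 0.051), and Slc22a26 read 14.1, 19.98 and 39.9 in WT and 2086, 169 and 91.1 in humanized males (3.68, limma adjusted p = 0.547). In Slc22a26, humanized replicate 1 stood far above the others, and the lowest humanized male still lay above the WT range. Slc22a28, by contrast, read 709.9, 1269.7 and 1692 in WT and 1001, 1381 and 1204 in humanized males (-0.15), and Slc22a30 read 8239, 10338 and 10978 in WT and 11258, 12489 and 10631 in humanized males (0.24), both with overlapping groups. Slc22a29 was called in 5 alternatives, among them the fit without WT replicate 3 (limma adjusted p = 0.00171). The 3 genes that stood higher were those with a WT male signal under 40, and the 2 that did not were already expressed in WT males.

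The windows of 250 bases before the starts of 4 of these genes are shown because neighbours with unlike behaviour can then be set side by side. They are from RefSeq (GRCm38.p6), 5′ to 3′ on the strand of the gene, all on the minus strand: Slc22a27 at chr19:7966028-7966277, Slc22a28 at chr19:8131983-8132232, Slc22a29 at chr19:8218901-8219150 and Slc22a30 at chr19:8405106-8405355. Capitals mark TTGCNNAA, a form of the C/EBP motif, on either strand.
Slc22a27: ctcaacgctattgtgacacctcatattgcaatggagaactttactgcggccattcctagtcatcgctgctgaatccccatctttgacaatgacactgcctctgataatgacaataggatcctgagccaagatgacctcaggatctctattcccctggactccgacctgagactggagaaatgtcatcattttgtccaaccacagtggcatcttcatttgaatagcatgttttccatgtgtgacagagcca
Slc22a28: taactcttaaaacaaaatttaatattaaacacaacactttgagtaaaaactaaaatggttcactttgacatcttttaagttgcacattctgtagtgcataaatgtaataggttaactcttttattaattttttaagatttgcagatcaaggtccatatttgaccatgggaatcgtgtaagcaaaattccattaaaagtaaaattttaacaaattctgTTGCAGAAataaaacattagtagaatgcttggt
Slc22a29: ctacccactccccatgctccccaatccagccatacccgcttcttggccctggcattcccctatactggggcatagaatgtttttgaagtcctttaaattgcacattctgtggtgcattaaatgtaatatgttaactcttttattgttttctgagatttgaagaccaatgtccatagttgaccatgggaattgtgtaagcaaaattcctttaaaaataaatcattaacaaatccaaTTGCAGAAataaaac
Slc22a30: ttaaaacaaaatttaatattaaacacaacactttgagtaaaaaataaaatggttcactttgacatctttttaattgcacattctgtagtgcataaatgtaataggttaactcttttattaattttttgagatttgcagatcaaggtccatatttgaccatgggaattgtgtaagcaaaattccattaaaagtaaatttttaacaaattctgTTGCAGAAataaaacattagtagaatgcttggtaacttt
The windows of Slc22a28 and Slc22a30, the pair whose groups overlapped, were 93% identical in a global alignment, so their reads may also be hard to separate. The Slc22a29 window was 65.4% identical to that of Slc22a28 and 64.7% to that of Slc22a30, and the Slc22a27 window 47.9% to 48.5% identical to these 3. TTGCNNAA was found once each in the windows of Slc22a28, Slc22a29 and Slc22a30, starting 33, 15 and 39 bases before the start, not in that of Slc22a27, and in 9.56% of the 32851 windows of this length. The STAT5 motif TTCNNNGAA, which reads the same on both strands, had no match in these 4 windows, 1 match in that of Slc22a26 (141 bases before the start), and a match in 7.02% of all windows. Neither motif overlapped the other. The window of Slc22a26 held no TTGCNNAA. Of the genes that stood higher, Slc22a29 thus held it and Slc22a26 and Slc22a27 did not, while Slc22a28 and Slc22a30 both held it. Whether either motif bears on the split was not tested.

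The call of Slc22a27 was lost under 8 alternatives, among them the 6 male libraries alone (limma adjusted p = 0.21) and the omission of WT replicate 1 or 2 or humanized replicate 1 or 3 (0.0606 to 0.103), with the log2 difference at 4.57 to 5.60. Pde4b, a phosphodiesterase gene that degrades cyclic AMP, was just outside the threshold. It read 299.7, 448 and 584 in WT and 1422, 1383 and 1167 in humanized males (1.65, limma adjusted p = 0.0503) and was called in 7 alternatives, among them the fits without WT replicate 3 (0.0123) and without the covariate (0.0178). Its female values ran opposite, from 799, 771 and 702 in WT to 426, 456 and 483 in humanized females, but the test of the difference between the sexes did not pass (2.36, limma adjusted p = 0.108).

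Sex-biased genes came next. Members of these lists, as of all lists in this text, were chosen with earlier results of these data known. The counts thus describe the lists and are no independent test. Of 45 tested genes on the list known to be higher in female liver, 31 were higher in humanized males, 18 of them at an unadjusted p under 0.05 and 12 without overlap, against 2 lower at that p. The median log2 difference was 0.87, beside -0.01 over all genes tested, and 1 member (Slc22a27) was called. Of 36 tested genes known to be higher in male liver, 33 were lower, 12 of them at an unadjusted p under 0.05 and 8 without overlap, and none was higher at that p. Their median was -0.89, and 1 member (Moxd1) was called. Within preparations the female-biased median was 1.08 (depletion) and 0.96 (polyA), and the male-biased median -0.66 and -0.74. Leaving out any 1 library kept the medians at 0.62 to 1.10 and at -1.06 to -0.51. In females the same lists had medians of 0.04 and -0.04 for humanized minus WT.

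**Figure D3:**
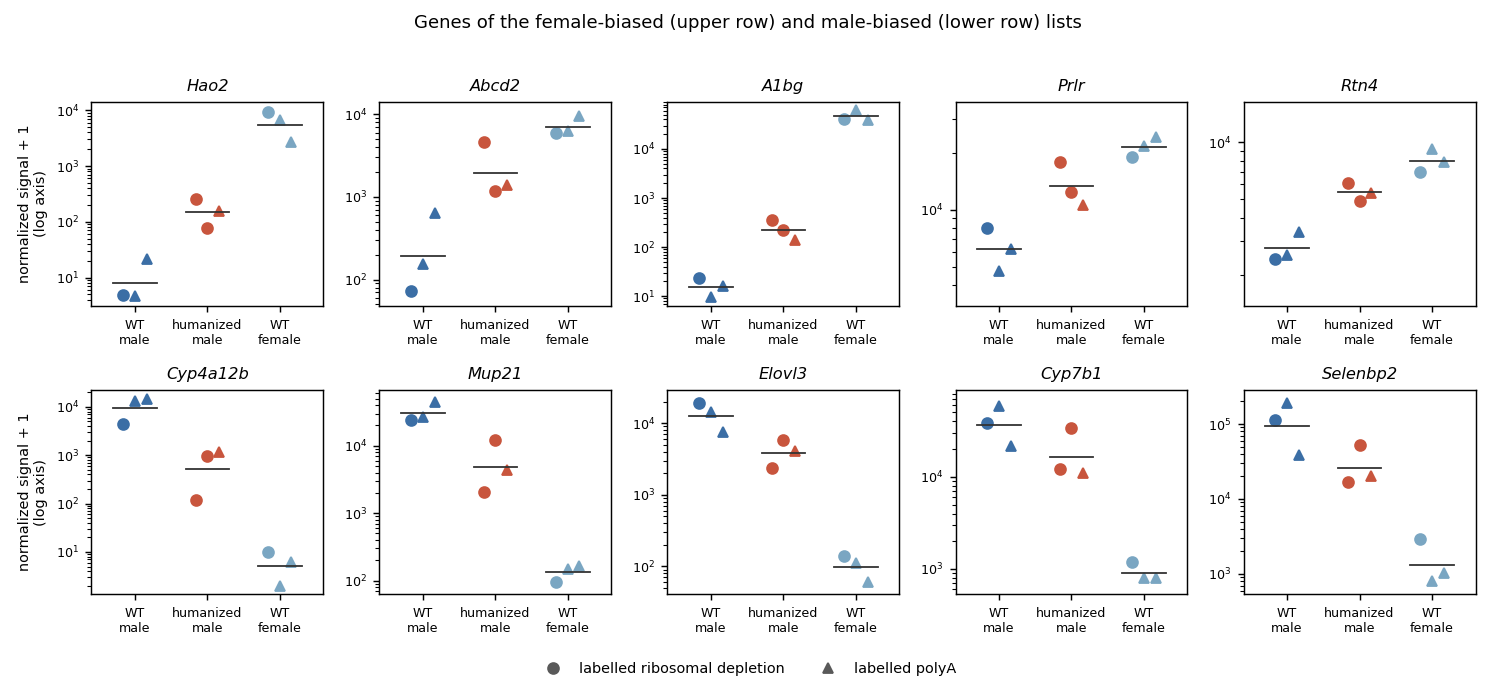
Normalized signal plus 1 (log axis) of 5 genes of the female-biased list (upper row) and 5 of the male-biased list (lower row), 1 point per library for WT males, humanized males and WT females, with lines at the mean of the log2 values. For Hao2, Abcd2, A1bg, Prlr, Rtn4, Cyp4a12b, Mup21 and Elovl3 every humanized male lies between the WT males and the WT females, while the humanized males overlap the WT males for Cyp7b1 and Selenbp2.

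Among the female-biased genes, Hao2, a peroxisomal hydroxy acid oxidase gene, read 3.94, 3.64 and 20.2 in WT and 258, 76.96 and 157 in humanized males (4.18, limma adjusted p = 0.15). Abcd2, a peroxisomal transporter of very long chain fatty acids, read 70.7, 154 and 639 in WT and 4672, 1169 and 1395 in humanized males (3.47, limma adjusted p = 0.381). A1bg, which encodes a secreted immunoglobulin-like plasma protein, read 22.7, 8.49 and 15.4 in WT and 351, 225 and 138 in humanized males (3.80, limma adjusted p = 0.381), while WT females held 41661, 61094 and 38288. The male groups did not overlap in these 3 genes, and humanized males stayed below every WT female. Hao2 and Abcd2 were called without WT replicate 3 (limma adjusted p = 0.0123 and 0.0334), and A1bg without humanized female replicate 1 (0.00514). None of the 3 was called under another alternative. Rtn4, which shapes the endoplasmic reticulum, differed less, at 2436, 2553 and 3379 in WT and 6091, 4934 and 5423 in humanized males (1.01, limma adjusted p = 0.278). Cyp3a44 read 4.92, 3.64 and 11.6 in WT and 781, 174 and 30.1 in humanized males and Cyp2c40 25.1, 402 and 8.49 in WT and 685, 807 and 457 in humanized males, both P450 genes with near copies between which reads may be split. Cyp2c40 was called without WT replicate 2, its highest WT value (limma adjusted p = 0.000116), 1 of 2 alternatives that called it. Cyp2c38, a P450 gene of arachidonic acid metabolism outside the list, read 284, 2078 and 1988 in WT and 11242, 7062 and 6566 in humanized males (3.21, limma adjusted p = 0.234, depletion 4.97, polyA 1.69).

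Not every female-biased gene went that way. Sult1e1, the oestrogen sulfotransferase gene, read 76.1, 851 and 133 in WT and 13.4, 20.9 and 72.8 in humanized males and Cyp2b10, a target of the receptor CAR, 18.7, 161 and 23.1 in WT and 6.62, 6.99 and 6.22 in humanized males, both lower in every humanized male (-2.62 and -2.43). Cyp2b9 was uneven, at 1.97, 2.43 and 0 in WT and 6858, 0.999 and 944 in humanized males, with humanized replicate 2 at the WT level. Cux2, a female-specific repressor of male genes, read 19.8, 19.4 and 77.2 in WT and 1367, 295 and 32.6 in humanized males: replicate 3 lay within the WT range, and the difference turned from 4.93 (depletion) to -0.25 (polyA). Tox did the same (3.29 and -0.18). Replicate 1 was the humanized male with the largest median deviation of the female-biased list, 1.53, against 0.37 in replicate 2 and 0.78 in replicate 3.

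On the male-biased side, Cyp4a12b, a testosterone-dependent fatty acid hydroxylase gene, read 4399, 12919 and 14853 in WT and 117, 977 and 1189.6 in humanized males (-4.03, limma adjusted p = 0.417). Mup21 and Mup20, which encode major urinary proteins that bind pheromones, read 24401, 26392 and 44569 in WT and 2040.4, 11990.1 and 4375 in humanized males for Mup21 and 308975, 179828 and 370005 in WT and 8160.3, 175016 and 28925 in humanized males for Mup20 (-2.62 and -3.10, limma adjusted p = 0.392 and 0.547). In both, replicate 2 was the highest humanized male, just below the lowest WT male for Mup20, and without it both genes were called (limma adjusted p = 0.0169 and 0.0466). Neither was called under another alternative. Elovl3, a fatty acid elongase gene, read 19313, 14125 and 7511 in WT and 2352, 5789.7 and 4062 in humanized males (-1.78). Selenbp2 (-2.16) and Cyp7b1, an oxysterol hydroxylase gene (-1.30), were lower with overlap, as were C6 of the terminal complement (-1.21) and Gstp1, a glutathione transferase gene (-1.40). Cyp2f2, a P450 gene of periportal hepatocytes, differed little but evenly, at 81145, 98380.2 and 91041 in WT and 49872, 64060.5 and 56951 in humanized males (-0.62). The Mup, Gstp, Cyp2c and Cyp3a genes have close copies, and their single values are uncertain between copies.

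The growth hormone and STAT5 pathway was looked at by role. None of its 39 tested members was called, 9 were higher and 1 lower at an unadjusted p under 0.05, and the median log2 difference was 0.02. Of the receptors, Prlr, the prolactin receptor gene, read 8013, 4748 and 6194 in WT and 17942, 12371 and 10524 in humanized males (1.02, limma adjusted p = 0.381). Cish, a STAT5 target and feedback inhibitor of the receptors, read 221, 446 and 425 in WT and 1812, 984 and 625 in humanized males (1.59, depletion 2.59, polyA 0.52). Among transcription factors, Onecut1 read 1489, 965 and 1231 in WT and 3114, 1933 and 1986 in humanized males (0.85). Cebpb read 4858, 3382 and 1658 in WT and 8773, 9299 and 6364 in humanized males (1.10, limma adjusted p = 0.547). Every humanized male exceeded every WT male. As described above, it was also higher in the libraries labelled ribosomal depletion. The fit holds that label as a covariate, and the plain difference of the log2 means was 1.42 (depletion 0.89, polyA 1.43). What the label says of the libraries is uncertain, as stated above. Igfbp3, a binding protein of insulin-like growth factors, read 944, 1216 and 1762 in WT and 2209, 3308 and 2047 in humanized males (0.91). Except for Cux2, Tox and Trim24 (0.48), which are also on the female-biased list, the members at that p did not overlap between the groups. The 9 higher members at that p became 5 without WT replicate 1 and 6 without humanized replicate 1.

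**Figure D4:**
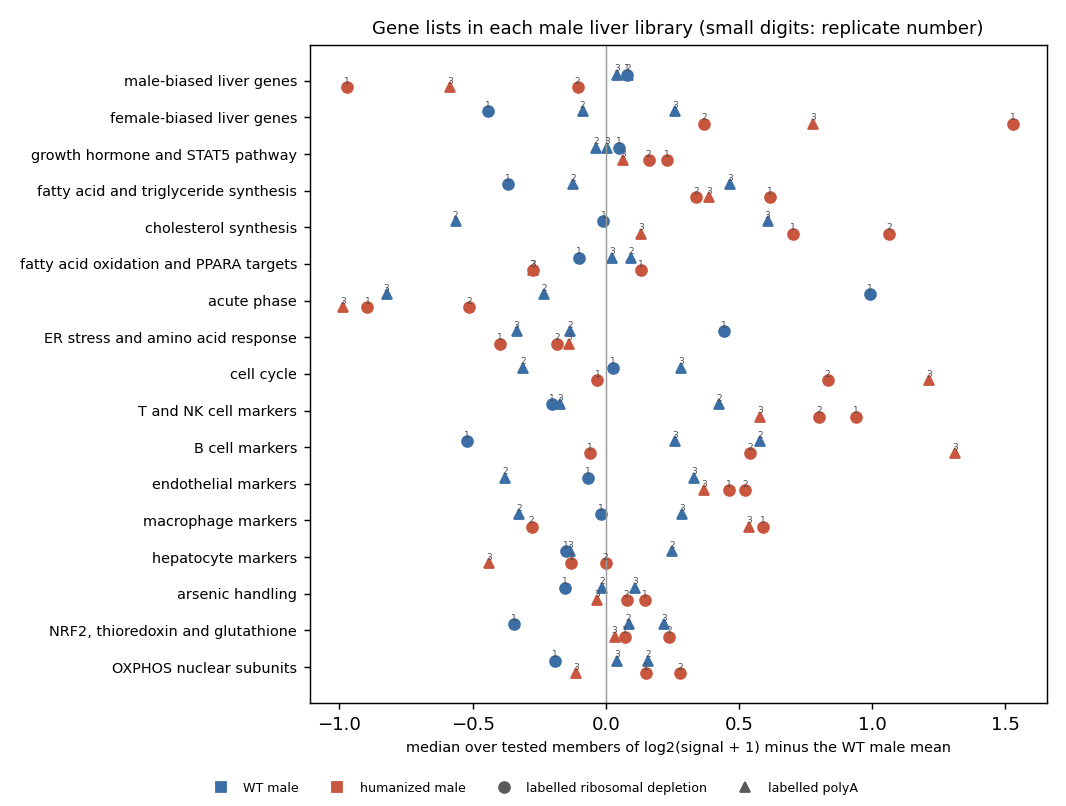
Median over the tested members of 17 gene lists of log2(signal + 1) minus the WT male mean (x axis), for each male library, in blue for WT and red for humanized males, with circles for labelled ribosomal depletion and triangles for labelled polyA. The 3 humanized males lie to the right of all WT males for the female-biased list and the T and NK cell markers and to the left for the male-biased list. They also lie to the right for the growth hormone and STAT5 list, by little (humanized replicate 3 at 0.065, WT replicate 1 at 0.051). Acute phase genes set WT replicate 1, at 0.99, apart from the other 5 libraries.

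Genes of fatty acid and triglyceride synthesis leaned upwards. Of 34 tested, 28 were higher, 8 of them at an unadjusted p under 0.05 and 5 without overlap, and 1 was lower at that p, with a median of 0.60 and no call. The median was 0.82 (depletion) and 0.33 (polyA). In females it was -0.34 for humanized minus WT. Pnpla3, a lipid droplet hydrolase gene under SREBP1c, was nearly equal in the 3 humanized males, at 19.6, 36.4 and 87.7 in WT and 285, 271 and 277 in humanized males (2.94, limma adjusted p = 0.234). WT females read 944, 2700 and 791 for Pnpla3, above every male. Elovl5, an elongase gene of polyunsaturated fatty acids, read 34173, 28569 and 40390.3 in WT and 74538, 59919 and 60341 in humanized males (0.91, limma adjusted p = 0.381). Fasn, the fatty acid synthase gene, read 13393, 15099.6 and 49858 in WT and 52403, 62137 and 60102 in humanized males (1.51, limma adjusted p = 0.547), and Srebf1, the gene of the SREBP1 regulator, 6679, 11944 and 24331 in WT and 24379, 25984 and 27001 in humanized males (1.13). In both, WT replicate 3 came close to the humanized males while WT replicates 1 and 2 were lower. Without WT replicate 3, Fasn and Pnpla3 were called (limma adjusted p = 0.0252 and 0.0435), Fasn in this alternative only. The same order held for Mid1ip1, an activator of acetyl-CoA carboxylase (1.08). In Me1, the malic enzyme gene, WT replicate 3 lay above them (1.35). Lpin1, a phosphatidate phosphatase and coactivator gene, was the lower member, at 13712, 34712 and 15656 in WT and 6264, 12342 and 8878 in humanized males (-1.10). Without WT replicate 1 the list had 2 members higher and 2 lower at an unadjusted p under 0.05 (median 0.41), and without WT replicate 3 it had 18 and 1 (median 0.80). Of the genes tested in common, 6.44% and 12.5% were at that p in these 2 fits. The count of higher members was 5 without WT replicate 2 or humanized replicate 1 or 2, and 14 without humanized replicate 3.

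Cholesterol synthesis genes were higher in 26 of 31 tested, 4 of them at an unadjusted p under 0.05, none lower at that p and none called, with a median of 0.59. In females the list median for humanized minus WT was -0.75. The male minus female difference was above 0 in 28 of the 31 (median 1.48), with no call. Sc5d, a late enzyme of the pathway, was without overlap, at 10639, 7187 and 18464 in WT and 24033, 26878 and 23364 in humanized males (1.16). Acat2 (0.85) and the SREBP retention protein gene Insig1 (0.80) overlapped between the groups. The median was 0.87 (depletion) and 0.18 (polyA), and the count at an unadjusted p under 0.05 was 1 without WT replicate 1 or 2 or humanized replicate 1, 2 without humanized replicate 2, 8 without humanized replicate 3, and 18 higher with 1 lower without WT replicate 3. Fatty acid oxidation genes and PPARA targets showed no such lean: of 44 tested, 15 were higher and 29 lower, 2 and 3 of them at an unadjusted p under 0.05, and the median was -0.15. The lower count was 5 without WT replicate 3 or humanized replicate 1, and 1 without WT replicate 2 or humanized replicate 2 or 3. Angptl4, an inhibitor of lipoprotein lipase, read 26012, 23759 and 14744 in WT and 15925, 13912 and 12756 in humanized males (-0.64), and Creb3l3, a fasting regulator, 53184, 48357 and 39397 in WT and 34686, 34196 and 35268 in humanized males (-0.43).

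Among genes that handle arsenic, other than As3mt itself, none of 36 tested was called, 2 were higher and 3 lower at an unadjusted p under 0.05 (4 and 3 without WT replicate 3, 1 and 1 without WT replicate 2), and the median was 0.05. Bhmt, which makes methionine from homocysteine with betaine and so feeds the methyl donor pool, was lower in every humanized male, at 367692, 530298 and 381191 in WT and 229795, 176711 and 273880 in humanized males (-0.79, limma adjusted p = 0.547, depletion -0.87, polyA -0.72). Dmgdh, the next enzyme of betaine breakdown, read 49979, 59439 and 57357 in WT and 47483, 38747 and 41102 in humanized males (-0.36). Of the transporters, Abcb1a, an efflux pump gene, read 64.6, 76.6 and 484 in WT and 718, 166 and 785 in humanized males (2.00), Slc2a2, the hepatocyte glucose carrier that also admits arsenite, 8168, 13141 and 21161 in WT and 26734, 23779 and 22349 in humanized males (0.92), and Aqp9, the aquaglyceroporin of arsenite uptake, 34999, 27989 and 34026 in WT and 42029, 35071 and 38595 in humanized males (0.26, limma adjusted p = 0.772). In Slc2a2 each WT male lay below each humanized male, with WT replicate 3 just under them.

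Metallothioneins, small cysteine-rich proteins that bind metals, were lower in humanized males. Mt1 read 52872, 39491 and 12288 in WT and 8242, 5212 and 766 in humanized males (-3.48 ± 0.98 SE, limma adjusted p = 0.547), and Mt2 17377, 26419 and 6344 in WT and 4025, 2397 and 329.9 in humanized males (-3.49 ± 1.10 SE, limma adjusted p = 0.594). Every humanized male lay below every WT male, replicate 3 lowest in both groups, and neither gene was called. In females the differences ran the other way without passing, at 0.55 and 0.78. Of 25 tested members of the metallothionein and heat shock list, this pair was lower and 2 cochaperone genes, Chordc1 (0.34) and Dnajb1 (0.41), were higher at an unadjusted p under 0.05. The higher count was 0 without WT replicate 3 or humanized replicate 1 or 3, and 0 in the fit of the 6 male libraries.
The 250 bases before the starts of this pair, whose differences were alike, are shown from RefSeq (GRCm38.p6), on the plus strand: Mt2 at chr8:94172368-94172617 and Mt1 at chr8:94178839-94179088. Capitals mark the core of the metal response element, TGCACNC or TGCGCNC, on either strand.
Mt2: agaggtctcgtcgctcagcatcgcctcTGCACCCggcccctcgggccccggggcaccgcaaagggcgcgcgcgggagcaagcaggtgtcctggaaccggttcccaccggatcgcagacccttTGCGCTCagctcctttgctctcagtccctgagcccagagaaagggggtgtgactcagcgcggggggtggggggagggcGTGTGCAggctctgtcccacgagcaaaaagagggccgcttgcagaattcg
Mt1: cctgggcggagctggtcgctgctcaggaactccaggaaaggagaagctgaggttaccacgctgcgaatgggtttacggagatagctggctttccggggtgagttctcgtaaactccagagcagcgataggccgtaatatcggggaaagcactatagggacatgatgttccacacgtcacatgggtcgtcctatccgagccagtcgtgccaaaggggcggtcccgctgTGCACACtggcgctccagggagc
The Mt2 window held 3 matches, starting 223, 128 and 50 bases before the start, and the Mt1 window 1, starting 23 bases before it. These counts hold for the RefSeq starts used, and bases outside the windows were not searched, so they do not compare the whole promoters. At least 1 match was present in 21.4% of all 32851 windows.

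Redox genes of the NRF2, thioredoxin and glutathione systems had 5 of 43 tested members higher and none lower at an unadjusted p under 0.05, no call, and a median of 0.12. The 5 were Gstm2 (0.89), Gstm3 (0.97), Nqo1 (0.89), Nfe2l2 (0.48), which encodes NRF2, and Gstk1 (0.37), and the groups overlapped in each. Without WT replicate 1 the list had 1 higher and 1 lower at that p and a median of -0.03, without WT replicate 3 it had 11 higher, and without WT replicate 2 or humanized replicate 1 or 2 it had 3. The list median was 0.39 (depletion) and -0.04 (polyA). Among P450 and conjugation genes of the xenobiotic receptors, 3 of 42 were higher and 2 lower at that p, with a median of -0.05. These became 1 and 12 without WT replicate 1, and 7 and 2 without WT replicate 3. Cyp2a5, a P450 gene of coumarin hydroxylation, read 1562, 8954 and 26511 in WT and 28156, 14148 and 35841 in humanized males (1.97). Nuclear-encoded subunits of oxidative phosphorylation had 0 of 37 members at an unadjusted limma p under 0.05, no call, and a median of 0.10, which was -0.11 without WT replicate 1. It was 0.40 (depletion) and -0.22 (polyA).

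Acute phase genes were lower in 32 of 34 tested, 8 of them at an unadjusted p under 0.05 and 4 without overlap, and none was called. That count rested on WT replicate 1: without it 17 were higher and 16 lower, and the median went from -0.87 to 0.00. By preparation the median was -1.57 (depletion) and -0.34 (polyA). Without WT replicate 3 the lower members at an unadjusted p under 0.05 were 22, and without WT replicate 2 or humanized replicate 1 or 3 they were 4. Saa2, a serum amyloid gene that is induced strongly by interleukin 6, read 352834, 17376 and 1113 in WT and 323, 2563 and 3544 in humanized males. Serpina3n, a protease inhibitor gene, read 221463, 79147 and 46533 in WT and 31458, 39939.6 and 20564 in humanized males (-1.86, limma adjusted p = 0.547, depletion -2.64, polyA -1.56), and Serpina3m 43564, 32188 and 29947 in WT and 22059, 24743 and 16431 in humanized males (-0.83, limma adjusted p = 0.417). In these 2 genes WT replicates 2 and 3 also exceeded every humanized male. C4a, a complement gene outside the list whose copy C4b is nearly identical, read 13204, 18797 and 7902 in WT and 1934, 2639 and 5003 in humanized males (-1.97, limma adjusted p = 0.331). It was called without WT replicate 3 (limma adjusted p = 0.0441) and in no other alternative. WT females read 898, 984 and 1085, so that humanized males stood between WT males and WT females for C4a, as for genes of the male-biased list.

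Cell cycle genes were higher in 39 of 43 tested, 16 of them at an unadjusted p under 0.05 and 5 without overlap, with none lower at that p, none called and a median of 0.75. The median was 0.465 (depletion) and 1.17 (polyA), and in females it was -0.28 for humanized minus WT. Levels of these genes were low, with a list sum of 11346 to 12970.5 in WT and 16094 to 18262 in humanized males. Aurkb, a mitotic kinase gene, read 4.94, 6.75 and 7.33 in WT and 14.02, 44.0 and 42.7 in humanized males (2.19, limma adjusted p = 0.417), and Mki67, a proliferation marker, 74.6, 56.9 and 89.6 in WT and 59.7, 178 and 361 in humanized males (1.36). Humanized replicate 1 lay within the WT range for Mki67 and had a list median of -0.03, against 0.83 and 1.21 in replicates 2 and 3. The count at an unadjusted p under 0.05 was 8 without WT replicate 2, 7 without humanized replicate 2 and 5 without humanized replicate 3, and the median stayed between 0.58 and 1.11. Ccnd1, the G1 cyclin gene, differed from the mitotic genes in that replicate 1 was the highest humanized male, at 2989, 234 and 899.6 in WT and 6163, 4756 and 3985 in humanized males (2.20). In bulk tissue, a larger share of dividing cells and more RNA per cell cannot be told apart, and the same holds for all cell type markers that follow.

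Lymphocyte markers were expressed at low levels, and none was called. Of 20 tested T and NK cell markers, 17 were higher, 6 of them at an unadjusted p under 0.05 and 10 without overlap, none was lower at that p, the count was 4 without humanized replicate 1, and the list sum was 1281 to 1775 in WT and 1640.2 to 2545 in humanized males. The T cell receptor chain gene Cd3d read 12.8, 8.49 and 13.5 in WT and 26.7, 28.9 and 32.2 in humanized males (1.39), Cd3g 13.2, 11.6 and 15.6 in WT and 29.5, 25.6 and 26.8 in humanized males (1.03), and the NK receptor gene Ncr1 1.98, 2.43 and 3.86 in WT and 5.73, 12.0 and 15.6 in humanized males (1.65). B cell markers were higher in 13 of 17, 1 of them and none of the lower ones at that p (5.88% of the list), with Cd79a, a chain of the B cell receptor, at 11.8, 41.3 and 36.6 in WT and 44.7, 61.9 and 85.2 in humanized males (1.49), but their median ranged from 0.21 to 0.95 as single libraries were left out. Endothelial markers were higher in 15 of 18, 5 at an unadjusted p under 0.05, led by the sinusoidal genes Clec4g at 1834, 1132 and 1766 in WT and 2286, 3331 and 2507 in humanized males (0.80), Mrc1 (0.64) and Fcgr2b (0.59). That count was 2 without WT replicate 1, 3 without WT replicate 2 or humanized replicate 1 or 2, and 11 without WT replicate 3. Of 20 macrophage markers, 18 were higher, 2 at that p (0 without humanized replicate 1 or 3, 4 without WT replicate 1 or humanized replicate 2), and the median ran from 0.16 to 0.54 as single male libraries were left out, with sums of 27286 to 40456 in WT and 29247 to 47727 in humanized males, but Cd163, a haemoglobin scavenger receptor gene of resident macrophages, read 799, 510.4 and 1264 in WT and 1463, 195 and 49.4 in humanized males (-2.18). Outside the lists and named for their small p, the cytokine gene Il1a (33.5, 57.0 and 70.3 against 102, 95.9 and 142) and the dendritic cell gene Cd83 (7.87, 25.5 and 24.1 against 79.2, 46.0 and 124) were without overlap. WT females read 109, 211 and 241 for Il1a and 86.9, 152 and 71.8 for Cd83, above every WT male. Of 16 stellate cell and fibroblast markers, 14 were higher (median 0.36), 1 of them at that p and 7 without WT replicate 3. Hepatocyte markers leaned the other way, with 13 of 16 lower (median -0.21, depletion 0.03, polyA -0.40) and 0 at that p by limma. In females the medians for humanized minus WT were 0.28 for T and NK cell and 0.59 for B cell markers. They were -0.40 for endothelial, -0.125 for macrophage, -0.32 for stellate cell and fibroblast and -0.08 for hepatocyte markers. None of these markers was called, and the part of cell type shares in the cell cycle and immune values was not tested.

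A search over all tested genes for a signal of at most 3 in every library of 1 male group and at least 30 in every library of the other found As3mt and 3 genes of chromosome 7. This search was made after the values were seen. Gvin1, a gene of the very large interferon-inducible GTPases, was listed at 0 in all 3 WT males and at 545, 1116 and 976 in humanized males. Trim12a and Trim5, antiviral tripartite motif genes, were listed at 0 in all 3 WT males and at 302, 304.1 and 531 and 106, 122 and 185 in humanized males. None was called in the fit of 12 libraries (limma adjusted p = 0.547, 0.59 and 0.596), and all 3 were called in the fit of the 6 male libraries alone (0.0015, 0.00221 and 0.0135), where WT males had no spread. No fold is given against groups listed at 0.

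The female libraries showed that this pattern did not follow the genotype label. Gvin1 read 0, 1029 and 479 in WT females and 0, 0 and 616 in humanized females. WT female replicates 2 and 3 and humanized female replicate 3 thus carried the signal, and WT female replicate 1 and humanized female replicates 1 and 2 did not. Trim5 and Trim12a split the same 12 libraries in the same way. Neighbouring Trim genes were graded. Trim30d read 18.998, 7.10 and 24.6 in WT and 175, 160.2 and 284 in humanized males. It read 37.0, 609 and 283.1 in WT females and 41.7, 35.1 and 363 in humanized females. Trim6 was lower in humanized males, at 73.6, 190.4 and 84.5 in WT and 38.3, 28.7 and 33.7 in humanized males, and lowest in WT female replicate 2 and humanized female replicate 3 (11.9 and 18.4). Trim12c, in the midst of these genes, ranged only from 964 to 1548 in the 12 libraries. Trim genes of this cluster have close copies, so single values are uncertain between copies. In males the split falls exactly on the genotype groups, so that a difference in background at these genes and the replaced locus cannot be told apart there. Zfp982 of chromosome 4, whose values are given below, split the 12 libraries in the same way, except that humanized female replicate 3 was at 0. Whether the male groups differ in background at that gene or elsewhere was not tested, and every male difference in this text carries that limit.

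**Figure D5:**
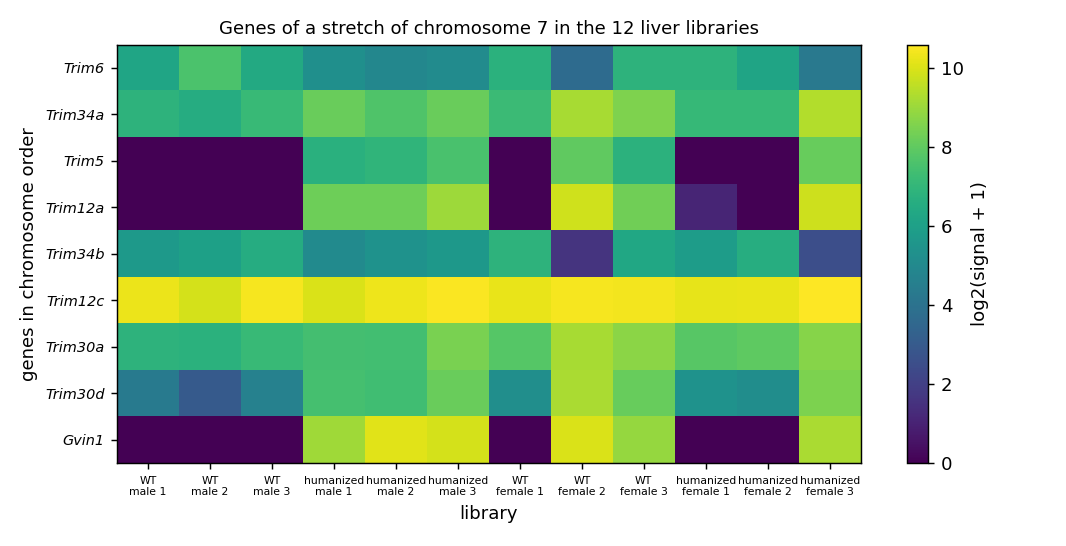
Colour shows log2(signal + 1) of 8 Trim genes and Gvin1, in their order on chromosome 7 (rows), in the 12 liver libraries (columns). Trim5, Trim12a and Gvin1 are at or near 0 in the 3 WT males, WT female 1 and humanized females 1 and 2 and well above it in the other 6 libraries, while Trim12c is even.

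The remaining genes with the smallest p values were of several kinds and none was called. Tead1, a transcription factor of the Hippo pathway, read 116, 149.7 and 177 in WT and 671, 254 and 403 in humanized males (1.56, limma adjusted p = 0.348), and Neurl3 was higher as well (0.96). WT females read 817, 1094 and 1006 for Tead1 and 375, 499 and 435 for Neurl3, above every WT male. Lower were Rusc2, at 3956, 4897 and 4115 in WT and 2783, 2231 and 1900.3 in humanized males (-0.96, limma adjusted p = 0.273), and Cln8, a gene of endoplasmic reticulum to lysosome transport (-0.81, limma adjusted p = 0.331). WT females read 4361, 3830 and 3723 for Rusc2 and 5007, 5417 and 3929 for Cln8, above every humanized male. Sox9, a cholangiocyte and progenitor factor that is also expressed in periportal hepatocytes, read 566, 588 and 377 in WT and 244, 317 and 151 in humanized males (-1.28). In glucose metabolism, Pfkfb1, the liver form of the enzyme that sets fructose 2,6-bisphosphate, read 2696, 3648 and 3844 in WT and 2300, 2116 and 1705 in humanized males (-0.74), and Hk2, a hexokinase gene hardly used by hepatocytes, 37.3, 58.2 and 85.7 in WT and 86.9, 65.1 and 143 in humanized males (0.97). Of the 35 glucose metabolism genes tested, 3 were higher and 1 lower at an unadjusted p under 0.05. These became 1 and 3 without WT replicate 1, and 8 and 2 without WT replicate 3. Of 30 insulin signalling genes, 1 was higher and 1 lower at that p.

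Whether the genotype difference in males departed from that in females was tested by the interaction term, which called 1 of 15180 genes (0.00659%), with 1241 (8.18%) at an unadjusted p under 0.05. Klk1b22, a tissue kallikrein gene with close copies, read 211, 168 and 89.6 in WT and 16.6, 26.8 and 0 in humanized males, and it was listed at 0 in all 3 WT females and at 279, 241 and 207 in humanized females. The groups thus differed in opposite directions in the sexes, and the male minus female difference was -12.15 (limma adjusted p = 0.0157). Klk1b22 lies on chromosome 7, as do Gvin1, Trim5 and Trim12a, and its signal did not follow the genotype label across the sexes. Whether the libraries differ in background at this gene was not tested. The call was lost in 7 alternatives, among them the omission of humanized male replicate 1 (0.0529), WT female replicate 2 (0.0585) and humanized female replicate 1 (0.0897) or 2 (0.0858).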

How the data were processed

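RNA of 12 liver samples was used, in 4 groups of 3 by the labelled genotype and sex. The values are signal as deposited: gene read counts scaled by DESeq size factors, per the column names and the submitters' processing notes, which list STAR, Salmon, DESeq2, limma and mm9 without versions or roles. Whole reads could not be recovered, so no count model was used, and the sequencing depth is unknown; the summed signal is given instead. Libraries were made with a directional kit after ribosomal depletion or polyA selection, per the labels' protocols.

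Genes with a mean signal of at least 10 over the 12 libraries (15180 of 48440 rows; 24104 above 0) were fitted in limma 3.58.1 (R 4.3.3) on log2(signal + 1) with 4 groups and the labelled preparation, a trend, 7 residual degrees of freedom and Benjamini-Hochberg adjustment. An exact test of 3 against 3 cannot go below p = 0.1, so single-gene p-values come from limma. The fit was tested on simulated data for the male comparison (14991 genes): it recovered 39% of log2 shifts of 1 and 75% of shifts of 2, with 5 false calls. Log2 differences understate changes of low genes.

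Symbols are those of the table (44698 rows), with 3360 more rows named from a gene table. Lists and members were chosen with earlier results of these data known. Named genes are As3mt and Borcs7, the called genes, those with the 12 smallest p and the 8 largest differences in each direction, up to 6 members of each list, the interaction call and 5 genes per direction for preparation; some of these are not reported here. Promoter windows are from RefSeq (GRCm38.p6), another build than mm9, so no coordinates of the files were used with them. Alternatives changed the covariate, replicate block, pseudocount, filter, scaling, trend and libraries.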

Additional observations from a re-analysis of the deposited data

Results flagged for a closer look

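The genotype difference of Klk1b22, a tissue kallikrein gene, differed between the sexes by the interaction test, with a male minus female difference of -12.15 on the log2 scale (limma adjusted p = 0.0157). The gene was lower in all 3 humanized males than in any WT male, and higher in all 3 humanized females than in the WT females, which were listed at 0. Its signal thus did not follow the genotype label across the sexes, and whether the libraries differ in background at this gene was not tested.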

How the results depend on the processing

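The number of genes called between humanized and WT males, 5, was 3 with the replicate block, 8 with a pseudocount of 10, 3 with no trend, 46 with the libraries labelled ribosomal depletion alone and 2 with those labelled polyA alone, and 3 to 15 when single libraries were left out (15 without WT male replicate 3). The cause was not tested, except that the last 2 fits and the omissions use fewer samples. Same-numbered WT and humanized males did not deviate together (r = -0.01, 0.08 and -0.02), so the replicate numbers were not taken as pairs, and the block kept As3mt, Moxd1 and Borcs7. The interaction call, 1 gene, became 2 without the preparation covariate, 0 with a pseudocount of 0.1, 0 with a mean signal of at least 100, 0 with no trend, and 0 to 10 when single libraries were left out. Directions that reversed were those of Cyp17a1 with ribosomal depletion libraries (-0.32), of Tox (-0.18), Cux2 (-0.25), Slc22a30 (-0.0030), Manf (0.0436) and Creld2 (0.15) with polyA libraries, and of Slc22a28. The last was 0.0419 without the covariate, 0.0799 with the replicate block, 0.22 in the 6 male libraries and 0.73 with ribosomal depletion libraries, and ran from -1.06 to 0.25 as single libraries were left out. Of the single-gene values under the alternatives, 3377 kept direction and side of the threshold, 34 lost and 32 gained a call.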

Other observations

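Gene groups of the liver lobule, the clock and the stress response that have not been described held no called member. Of 25 pericentral genes tested, 5 were higher and 1 lower at an unadjusted limma p under 0.05. Rgn, which encodes regucalcin, read 62066, 78379.8 and 94359.9 in WT and 114328, 134548 and 120723 in humanized males (0.67), and Lect2, a hepatokine gene, 6557, 6335 and 7290.1 in WT and 9406, 13206 and 11574 in humanized males (0.64). Both were higher in every humanized male, as was Nkd1, a Wnt target (0.82). Without WT replicate 1 the counts were 1 higher and 5 lower. Of 25 periportal genes, 1 was higher, the urea cycle gene Otc (0.35), and 1 lower at that p. Of 22 circadian clock genes, 2 were higher and 1 lower at that p, which became 0 and 4 without WT replicate 1, where the median turned from 0.20 to -0.35. Among them, Noct, a clock-driven NADP(H) phosphatase gene, read 1601, 1839 and 2067 in WT and 3604, 2769.7 and 5070.1 in humanized males (0.98) and Tsku, a gene of a secreted liver protein, read 6486, 13382 and 10578 in WT and 3467, 4754 and 5281 in humanized males (-1.03). The clock list median was 0.68 (depletion) and -0.12 (polyA).

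Of 30 genes of endoplasmic reticulum stress and amino acid response, 23 were lower, 3 of them at an unadjusted p under 0.05, and 2 of the higher ones were at that p. The 3 became 0 without WT replicate 1 or humanized replicate 1, 7 without WT replicate 3 and 8 without humanized replicate 3, and the median went from -0.28 to 0.05 without WT replicate 1. By preparation it was -0.79 (depletion) and 0.12 (polyA). Manf read 21002, 7059.8 and 8639 in WT and 3420.1, 6488 and 8049 in humanized males and Creld2 16851, 5352 and 3893 in WT and 1541, 2901 and 5069 in humanized males, both highest in WT replicate 1. Of 40 interferon response genes, 4 were higher and none lower at that p (1 without humanized replicate 3). The median, 0.11, became -0.02 when humanized replicate 2 was omitted. Among the 4 were the guanylate binding protein genes Gbp3 (228.2, 367 and 432 in WT and 494, 629 and 1002 in humanized males) and Gbp7 (916, 817 and 1366 in WT and 1481, 1459 and 1801 in humanized males). Zfp982, a zinc finger gene of chromosome 4, read 1.06, 10.5 and 0 in WT and 91.3, 175 and 56.4 in humanized males, and 0, 114 and 34.6 in WT and 1.06, 0.919 and 0 in humanized females. Complement and coagulation genes had 1 of 38 higher, the lectin gene Mbl2 (0.53), and 2 lower at that p. Lipid droplet and lipoprotein genes had 1 of 29 higher and 1 lower, the lipoprotein lipase cofactor gene Apoc2 (-0.63). Bile acid genes had 0 of 32 higher and 2 lower (5 lower without WT replicate 1, 4 without WT replicate 3). Of 22 p53 targets and 13 genes of the mitochondrial genome, 0 were at that p by limma, and 0 were called. The p53 list median was -0.57 (depletion) and 0.25 (polyA). Of the remaining marker lists, 0 of 11 neutrophil and 0 of 9 erythroid markers were at that p, 1 of 10 cholangiocyte markers (Sox9) was lower, and 2 of 6 adipocyte markers were higher (0 without WT replicate 1).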
